A study of Mus musculus with 8 samples.

Results

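The genes described here are the mouse olfactory receptor genes numbered Olfr763 to Olfr827, which form 1 cluster near the distal end of chromosome 10. They were taken as the rows of the polysome expression table whose symbol is Olfr and a number within that range. Of the 21765 genes in the table, 58 met this rule, and 1032 further Olfr genes without a suffix served as the other receptors. On GRCm38 all 58 lie between chr10:129010791-130214403, a span of 1.204 Mb, with 27 on the plus and 31 on the minus strand. GENCODE annotates 57 as protein coding and Olfr779 as a polymorphic pseudogene. For Olfr764 and Olfr766 the GENCODE genes used are named Olfr764-ps1 and Olfr766-ps1, both annotated as protein coding. Their annotated coding sequences run from 924 to 984 bases.

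Olfactory receptors are G protein-coupled receptors with a short intron-free coding region, and each mature olfactory sensory neuron expresses essentially a single receptor gene from a single allele. The receptor binds odorants on the cilia and acts through the G protein subunit Gnal, the adenylyl cyclase Adcy3 and a cyclic nucleotide-gated channel. A receptor mRNA is therefore made by a small share of the neurons in a piece of tissue, and its level in bulk RNA is low. In such bulk libraries, fewer neurons choosing a receptor and less receptor mRNA per neuron cannot be told apart.

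The RNA came from the main olfactory epithelium of mice with or without Mex3a, which encodes an RNA-binding protein of the MEX3 family. WT mice were Mex3a flox/flox or Mex3a flox/+, and conditional knockout (cKO) mice were Mex3a flox/flox with a Cre allele. All tissue was placed in 100 μg/mL cycloheximide, which holds ribosomes on mRNA, and lysates were spread on sucrose gradients of about 42 fractions. Early polysomes are fractions 27 to 34 and late polysomes the denser fractions 35 to 42, which carry mRNA with more ribosomes. Genotype and fraction make 4 groups of 2 libraries, and by the library names the early and late libraries come from the same 4 lysates. The labels give neither the animals behind a lysate nor their age, so p-values measure only the spread between these samples, which may be technical.

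Values are TPM, transcript abundance per gene length and library size, here divided by 1 factor per library ("scaled TPM"), and changes are differences of log2(scaled TPM + 1), which understate the fold of low genes. Mex3a was at 93.2 to 115.6 TPM over the 4 WT libraries and at 11.1 to 19.8 TPM over the 4 cKO libraries. The second WT early library carries a cKO genotype tag against its WT title; its Mex3a level is that of WT, and it was kept as WT. Whole reads inferred from the steps of the TPM values come to 7776792 to 12771079 per library, of which 775 to 2317 fell on the members, without Olfr779, for which none could be inferred. The lowest of these was the second cKO late library and the highest the second WT early library. Of the mature neuron markers listed, 12 of 12 were in the table and none was at 0 in all libraries. Of the other lists, the marker genes of sustentacular, gland, glial, basal, microvillous and immune cells were detected in all groups, and 1 of 5 red cell markers was in the table.

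The coding sequences are shown first because they set most of these genes apart from other receptors and set how far reads can be told between them. Odorant receptors share an aspartate-arginine-tyrosine triplet at the inner end of the third membrane helix, preceded in many receptor genes by codons for methionine, alanine and tyrosine. In the chromosome 10 genes the alanine codon is mostly a serine codon. Searched in frame on the coding strand, the serine form was found in 48 of 58 members (82.8%) and in 75 of 1025 other receptor coding sequences (7.32%). The alanine form was found in 2 of 58 members (3.45%) and in 492 of the other 1025 (48.0%), and 8 members held neither. These 8 are Olfr779, Olfr784, Olfr819 and the 5 genes Olfr823 to Olfr827 at the distal end. Below are 30 bases of 6 members from GENCODE, 5′ to 3′, with the serine or alanine codon in capitals (bases 4 to 6); the aspartate-arginine-tyrosine codons are bases 10 to 18.
Olfr799: atgTCCtatgatcgctatgtggccatctgt
Olfr780: atgTCAtatgaccgctacgtggccatctgt
Olfr791: atgTCCtatgatcgttatgtggccatctgt
Olfr812: atgTCCtatgatcgctatgtagccatctgc
Olfr796: atgGCCtatgaccgttatgcagccatctgt
Olfr763: atgGCCtatgaccggtatgctgccatctgc
On GRCm38 the window of Olfr799 is chr10:129647472-129647501 (plus strand), that of Olfr780 chr10:129321970-129321999 (plus) and that of Olfr791 chr10:129526574-129526603 (plus). That of Olfr812 is chr10:129842666-129842695 (minus), that of Olfr796 chr10:129608096-129608125 (minus) and that of Olfr763 chr10:129011638-129011667 (plus). All 6 lie in coding exons.

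Since polysome position follows the number of ribosomes on an mRNA, the bases around the start codon are shown as well. Whether start context or coding length bears on the position of these mRNAs was not tested. A purine 3 bases before the ATG and a G directly after it are the best-known features of a strong start context. Among the 54 members with an annotated ATG start and at least 12 bases before it, 50 (92.6%) had A or G at the third base before the ATG, against 67.7% of 902 other receptors. G directly after the ATG was found in 8 of the 54 (14.8%), against 52.8% of the other receptors, and 6 members had both. The windows below hold 12 bases before the start codon, the codon in capitals and 9 bases after it. The first 4 are from members that fell in late polysomes, and the last 3 from members with a late-minus-early change near or above 0.
Olfr799: caataaccaagaATGaaaaaccga
Olfr780: ctgatgttaacaATGagaaaccac
Olfr769: cacaagacagggATGacaaatcat
Olfr812: aacaaacaagaaATGaagaaccag
Olfr794: ccaaaagtagttATGagaaaccac
Olfr818: gaaacaagagaaATGaagaaccag
Olfr827: cagaaacttgccATGggtgacaag
Their GRCm38 positions, each within 1 exon, are chr10:129647118-129647141 (Olfr799, plus), chr10:129321613-129321636 (Olfr780, plus), chr10:129112412-129112435 (Olfr769, minus) and chr10:129843029-129843052 (Olfr812, minus). The other three are chr10:129570645-129570668 (Olfr794, plus), chr10:129946049-129946072 (Olfr818, minus) and chr10:130211117-130211140 (Olfr827, minus). Olfr812 and Olfr818 have the same 12 bases from the start codon on, as do Olfr780 and Olfr794; the other three windows differ from these and from each other. Of 54 members with an annotated 5′ untranslated region, 53 held at least 1 ATG in it, and up to 32.

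Many of the genes are close copies. By coding-sequence identity, 20 of the 58 are at least 95% identical to another receptor, 11 of them among the genes tested. The closest are Olfr819 with Olfr247, which lies within the same stretch of chromosome 10 but outside the numbering (99.3%), Olfr772 with Olfr773 (99.2%), which has no row in the table used here, Olfr764 with Olfr766 (99.0%), Olfr823 with Olfr824 (98.7%) and Olfr765 with Olfr767 (98.2%). The others are Olfr779 with Olfr782 (97.5%), Olfr777 with Olfr800 (96.8%), Olfr782 with Olfr804 (96.7%), Olfr763 with Olfr9 (96.5%), Olfr775 with Olfr776 (96.0%), Olfr814 with Olfr815 (95.9%) and Olfr792 with Olfr798 (95.1%). These values count matching bases over the longer sequence. Over the aligned bases alone, Olfr825 with Olfr826 (97.0%), Olfr809 with Olfr813 (96.6%) and Olfr805 with Olfr806 (95.7%) were also above 95%. How reads that match both copies were counted is not given in the sources used here, so the values of all these genes are uncertain. The TPM steps also return the gene length used by the authors: it ran from 939 to 10088 bases with a median of 3044 over 57 members. For 20 members it equals the GENCODE exon length, while for Olfr785 and Olfr789 it is the coding length alone. A TPM level therefore depends on how much untranslated sequence each gene model holds.

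All 58 genes were detected in at least 1 library and 53 in all 8. Mean scaled TPM over the 8 libraries ran from 0.135 (Olfr774) to 6.67 (Olfr791) with a median of 1.77. By mouse receptor subfamily names, the 12 MOR114 genes have the highest summed level: their means add up to 36.1 TPM, and all 12 passed the minimum mean of 1 TPM set for testing. The 10 MOR110 genes add up to 20.1 TPM and the 10 MOR111 genes to 12.6 TPM, of which 9 and 4 were tested. The 5 MOR113 genes gave 10.9 TPM, the 4 MOR108 genes 9.4 TPM and the 5 MOR210 genes 8.1 TPM. In all, 43 of 58 members were tested; Olfr792 was just above the minimum (1.01 TPM as deposited) and Olfr798 just below it (0.961).

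Olfr791 (ENSMUSG00000047626, chr10:129521792-129528353, plus strand) was the highest member. Its deposited value was 6.49 and 7.46 TPM (early) and 6.51 and 5.81 TPM (late) in WT, and 7.81 and 9.56 TPM (early) and 4.53 and 4.70 TPM (late) in cKO, on 29 to 96 reads per library. Both cKO late libraries were the lowest and both cKO early libraries the highest, whereas WT early and WT late overlapped in deposited TPM. Olfr794 (ENSMUSG00000044293), a neighbour of the same MOR114 subfamily, was at 5.90 and 5.47 TPM (early) and 7.54 and 7.30 TPM (late) in WT, and 5.80 and 6.21 TPM (early) and 6.64 and 5.0 TPM (late) in cKO. Its late libraries were above the early ones in WT and on both sides of them in cKO. Olfr812 (ENSMUSG00000049052) of MOR110 had 6.30 and 7.79, 6.81 and 4.22, 6.78 and 8.40, and 4.88 and 3.42 TPM in the same order of groups, so its 2 WT late libraries stood on either side of the lower WT early one. The means of these 3 genes, 6.67, 6.22 and 6.14 scaled TPM, differed by less than the spread between libraries.

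The next 5 by level were Olfr813 (mean 4.63 scaled TPM), Olfr769 (4.05), Olfr810 (4.00), Olfr827 (3.93) and Olfr789 (3.61). Olfr827, with a gene model of 8466 bases, rested on most reads of all members, 77 to 223 per library. Olfr789, with a model of 939 bases that holds no untranslated sequence, rested on 2 to 33 reads per library. The plot of levels by library shows that most members had low values in all 4 groups.

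**Figure D1:**
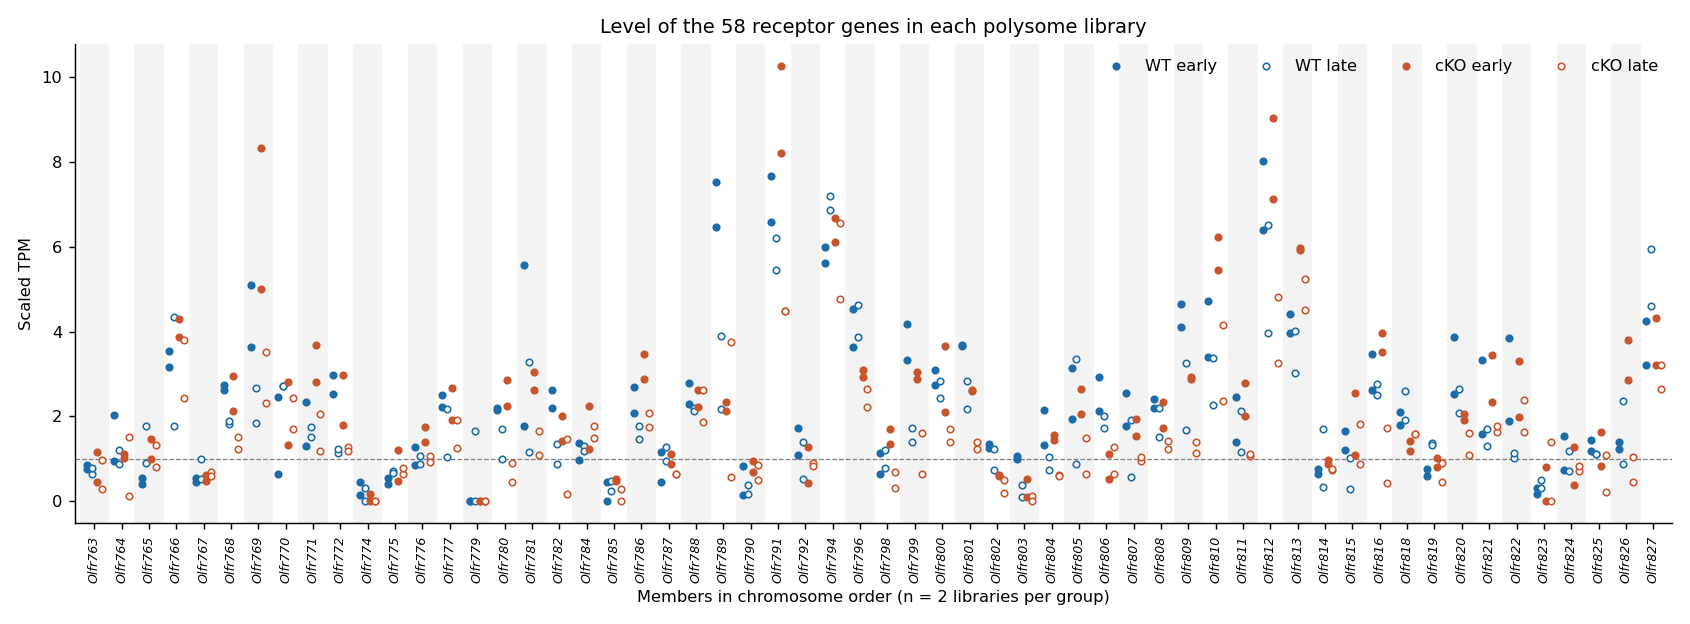
Scaled TPM of each of the 58 receptor genes (x axis, in chromosome order) in the 8 libraries; filled points are early and open points late polysomes, blue WT and orange cKO, 2 libraries per group, and the dashed line is 1 TPM. Olfr791, Olfr794 and Olfr812 have the highest means (6.67, 6.22 and 6.14), and the cKO late points of Olfr791 lie below its cKO early points.

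The first comparison asked how the receptor mRNAs are distributed between early and late polysomes. Averaged over genotypes, 14 of the 43 tested members fell in late polysomes and none rose at an adjusted p under 0.05 by limma. Over all 16097 genes tested, 34.8% were called lower and 34.2% higher in late polysomes, so the share of members called lower (32.6%) was near that of all genes, and the absence of higher ones was not. The median change of the members was -0.42, against -0.20 over 781 other receptors and -0.01 over all genes, and 37 of 43 were below 0. Of the other receptors, 184 were called lower and 36 higher. With TPM as deposited the median of all genes was 0.09 and that of the members -0.36, so relative to all genes the members stayed lower.

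**Figure D2:**
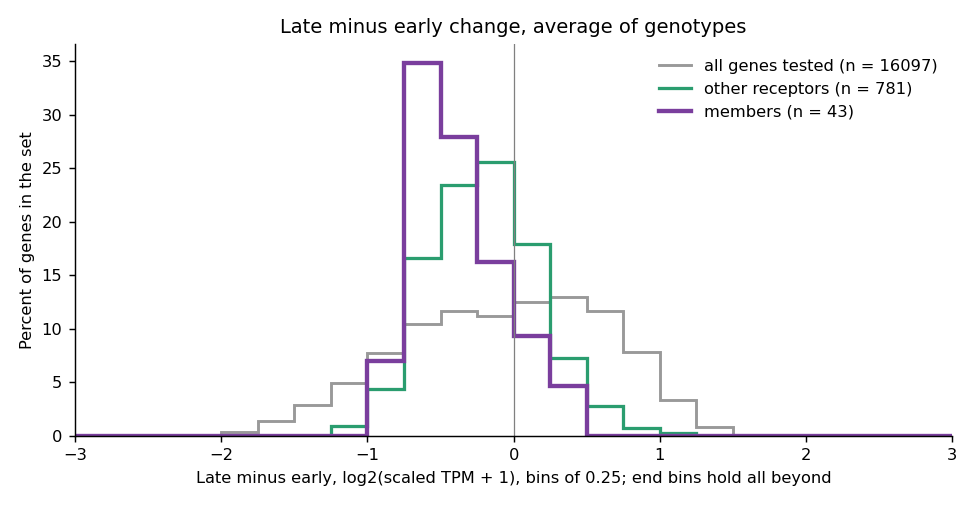
Percent of genes (y axis) by late-minus-early change, log2(scaled TPM + 1), average of genotypes (x axis, bins of 0.25), for the 43 tested members, 781 other receptors and all 16097 genes tested. The members centre on a median of -0.42, the other receptors on -0.20 and all genes on -0.01.

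The 14 came from 5 subfamilies: 6 of 12 tested MOR114 genes (Olfr768, Olfr769, Olfr772, Olfr780, Olfr791, Olfr799), 4 of 9 MOR110 genes (Olfr782, Olfr801, Olfr804, Olfr812), 2 of 4 MOR113 genes (Olfr810, Olfr816), 1 of 3 MOR108 genes (Olfr809) and 1 of 4 MOR111 genes (Olfr786). No MOR210 gene was called in this average. Medians by subfamily were -0.52 for MOR114, -0.51 for MOR110, -0.56 for MOR113 and -0.33 for MOR111.

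Olfr799 (ENSMUSG00000094734, chr10:129637484-129648326, plus strand) had the lowest value. It stood at 3.29 and 4.05 TPM (early) and 1.81 and 1.49 TPM (late) in WT, and 2.73 and 2.83 TPM (early) and 1.61 and 0.657 TPM (late) in cKO. All 4 late libraries lay below all 4 early ones. It fell by 0.92 on the log2 scale (SE 0.19, adjusted p = 0.00292 by limma) and was lower in late polysomes in 4 of 4 lysates, on 3 to 33 reads per library.

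Olfr769 (ENSMUSG00000042801, chr10:129108952-129117861, minus strand) was at 3.58 and 4.96 TPM (early) and 2.79 and 1.96 TPM (late) in WT, and 4.76 and 7.75 TPM (early) and 2.34 and 3.69 TPM (late) in cKO. After scaling its late libraries were all below its early ones, and it fell by 0.84 (SE 0.20, adjusted p = 0.00601 by limma). Olfr780 (ENSMUSG00000049573), another MOR114 gene, was at 2.16 and 2.09, 1.78 and 1.05, 2.73 and 2.10, and 0.457 and 0.930 TPM in the same order. Its change was -0.78 (SE 0.19, adjusted p = 0.00665 by limma), with the lowest values in the cKO late libraries on 4 and 6 reads.

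Olfr809 of MOR108 fell by 0.73 (SE 0.18, adjusted p = 0.00712) and Olfr772 of MOR114 by 0.68 (SE 0.18, adjusted p = 0.00925), by limma. Olfr772 shares nearly all of its coding sequence with Olfr773. Olfr812, the third highest member, fell by 0.64 (SE 0.18, adjusted p = 0.0126 by limma). Olfr816, with an adjusted p of 0.0203 by limma and a change of -0.70, was above early in late polysomes in WT lysate 1 (0.05) and far below it in cKO lysate 2 (-1.79), where it had 4 reads; its call was lost without the second WT early, WT late or cKO early library. Olfr782 had an adjusted p of 0.0459 by limma, and its call was lost in 13 of 17 alternatives; it is also near-identical to Olfr779 and Olfr804. The calls of Olfr799, Olfr769, Olfr780, Olfr809, Olfr772 and Olfr812 held in every alternative fit.

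In 7 of the 43 tested members (16.3%) all 4 late libraries were below all 4 early ones in scaled TPM: Olfr768, Olfr769, Olfr772, Olfr780, Olfr791, Olfr799 and Olfr804. Over all genes tested this held for 31.1%, and over the other receptors for 15.1%, so the share of members was close to that of other receptors. In 18 members the late value was lower in 4 of 4 lysates (41.9%, against 37.9% of all genes and 33.2% of other receptors). No member had all late libraries above all early ones, against 31.4% of all genes and 2.43% of other receptors.

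Some members showed no fall. Olfr794 changed by 0.04, although it is a MOR114 gene at the level of Olfr791.

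**Figure D3:**
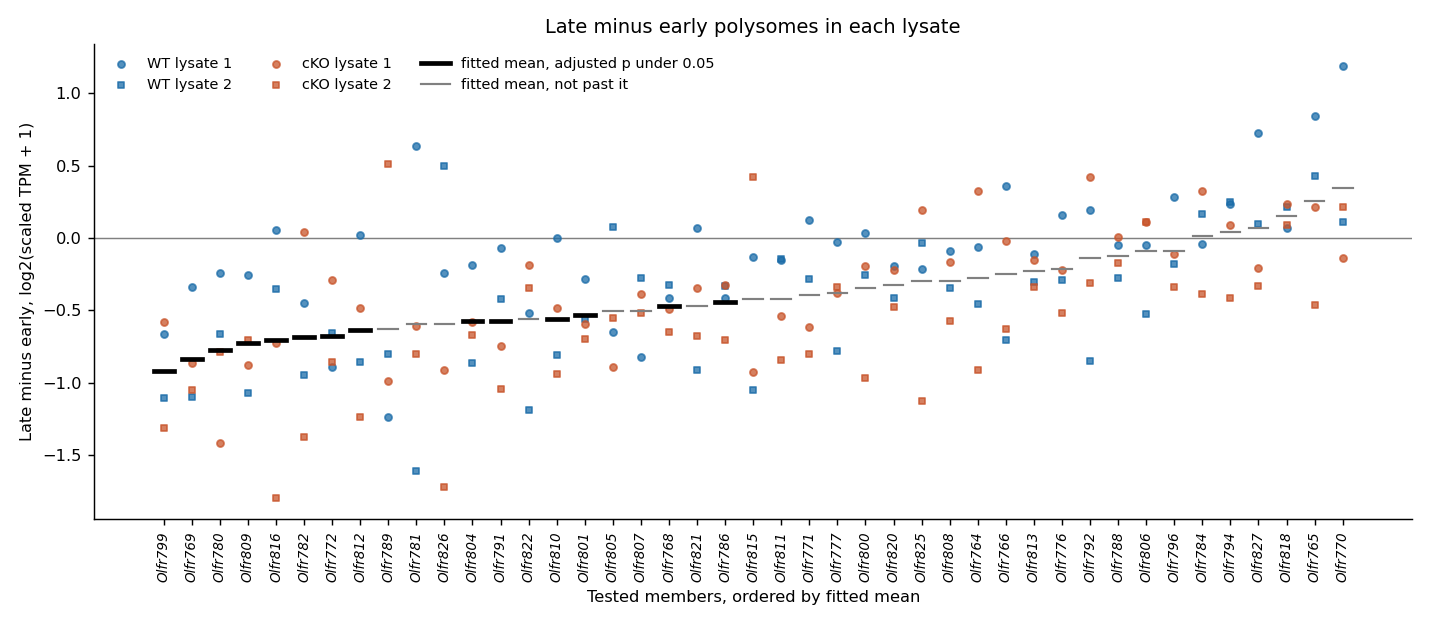
Late minus early, log2(scaled TPM + 1) (y axis), in each of the 4 lysates for the 43 tested members ordered by fitted mean (x axis); blue is WT and orange cKO, and thick black bars mark the 14 members with an adjusted p under 0.05. Olfr799 is lowest at -0.92, and Olfr789, Olfr781 and Olfr826, whose lysates spread widely, were not called in this average.

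The highest values, not called, were those of Olfr770 (0.34), Olfr765 (0.26) and Olfr818 (0.15). Olfr818 of MOR110 was at 1.76 and 2.05 TPM (early) and 2.01 and 2.77 TPM (late) in WT, and 1.13 and 1.33 TPM (early) and 1.59 and 1.66 TPM (late) in cKO. It was above early in late polysomes in all 4 lysates, by 0.07 to 0.23. In Olfr770, WT lysate 1 stood apart at 1.19, and Olfr765 is 98.2% identical to Olfr767. Across the 43 members the late-minus-early change had a Spearman correlation of -0.22 with mean level, 0.22 with the length used for TPM, 0.06 with 5′ untranslated length and -0.12 with the number of upstream ATGs (n = 41 for the last). These describe genes that share libraries and depth, and no order by any of the 4 properties is read from them.

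Within WT alone 2 of 43 members were called lower and none higher (all genes: 27.7% lower and 27.1% higher), Olfr799 at -0.89 (SE 0.28, adjusted p = 0.0245) and Olfr772 at -0.77 (SE 0.25, adjusted p = 0.0307), by limma. The median of the members was -0.29. With the lysate as a block 4 were called, and without the second WT early library, the one with the conflicting tag, none of the tested members was lower and 1 was higher. The count was 1 without either WT late library and 4 without the second cKO late library, and the calls of Olfr799 and Olfr772 were lost without either WT late library. Within cKO, 10 of 43 were called lower and none higher (all genes: 29.4% lower and 28.6% higher), with a median of -0.47.

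The largest falls in cKO were those of Olfr826 (-1.32, SE 0.34, adjusted p = 0.0101), Olfr816 (-1.26, SE 0.31, adjusted p = 0.00885) and Olfr780 (-1.10, SE 0.27, adjusted p = 0.00858), by limma. Olfr826 of MOR210 was at 2.72 and 3.54 TPM (early) and 1.06 and 0.480 TPM (late) in cKO, the last on 2 reads, against 1.2 and 1.35 TPM (early) and 0.918 and 2.52 TPM (late) in WT. Olfr791 fell in cKO by 0.90 (SE 0.17, adjusted p = 0.00247), Olfr769 by 0.95, Olfr799 by 0.94, Olfr812 by 0.86, Olfr809 by 0.79, Olfr810 by 0.72 and Olfr801 by 0.65, all under an adjusted p of 0.05 by limma. Of the 8 members with the largest falls in cKO, Olfr791 alone kept its call in all 19 alternatives run for it; each of the other 7 lost it without at least 1 cKO library. Without the second cKO early library 2 members were called in cKO, and without the second cKO late library 5. For the average over genotypes the count was 8 without the second cKO early library and 9 without the second WT early library.

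Whether the shift differed by genotype was tested by the interaction. No member passed (by limma; 0.00621% of all genes did). At an unadjusted p under 0.05 there were 3 of the 43 tested members, against 451 of the 16097 genes tested (2.8%). The 3 were Olfr826 (-1.45, SE 0.48), Olfr816 (-1.11, SE 0.44) and Olfr791 (-0.65, SE 0.24). The voom test on inferred reads also called none, with 3 at an unadjusted p under 0.05. The median interaction of the members was -0.15, against -0.13 in other receptors and -0.01 over all genes. The different counts in WT and cKO are thus not shown to differ. Olfr827 was the only tested member (2.33%) above early in late polysomes in both WT lysates (0.72 and 0.10) and below in both cKO lysates (-0.21 and -0.34). This pattern was found in 1.35% of all genes and in 4.99% of other receptors, and this gene was chosen after its values were seen.

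Marker mRNAs of cell types also differed in level between early and late polysomes. Both fractions come from the same lysates, so the sums below follow marker mRNAs along the gradient and do not count cells. The summed scaled TPM of 12 mature neuron markers was 10841 and 13277 TPM (early) and 8629 and 9069 TPM (late) in WT, and 12041 and 11878 TPM (early) and 8556 and 7543 TPM (late) in cKO. Its largest contributor, Omp, the olfactory marker protein, fell by 0.83 (SE 0.16, adjusted p = 0.00163 by limma), while 9 of the 12 markers rose and 3 fell, with a median of 0.48. The 10 sustentacular markers, of the supporting cells, summed to 7034 to 7325 (early) and 9674 to 10328 (late) in WT, and to 7096 to 7966 (early) and 10892 to 11790 (late) in cKO; 8 of the 10 rose and 1 fell. None of these genes was at 0 in all libraries. Their part in the change of the receptors was not tested.

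Genes that work with the receptors did not move as one group. Of 5 helpers of receptor export and coupling, 2 rose in late polysomes (Rtp1 by 0.48 and Rtp2 by 0.47, the receptor transporters) and 2 fell (Reep1 at -0.46 and Reep6 at -0.74). Of 15 genes of odorant signal transduction, 9 rose and 5 fell: Adcy3 rose by 1.58 and Gnal by 0.48, whereas Gng13, the G protein gamma subunit, fell by 1.73. Of 19 regulators of receptor choice, 9 rose and 7 fell, among them Lhx2, a homeodomain factor that binds receptor enhancers, at -0.81, and Kdm1a, a histone demethylase, at 0.87. All genes named here passed an adjusted p of 0.05 by limma. The medians of the 3 lists were 0.06, 0.27 and -0.03.

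The second comparison asked whether loss of Mex3a changed the receptor mRNAs on polysomes. By limma no member passed for the early fraction (0.0435% of all genes did), for the late fraction (0.0124%) or for lysate means (0.00621%). At an unadjusted p under 0.05 there were 3, 4 and 7 of the 43 tested members. Over the 16097 genes tested there were 1067, 1500 and 1815 (6.63%, 9.32% and 11.3%). On inferred reads voom also called none, with 7, 4 and 10 at an unadjusted p under 0.05. The median change of the members was -0.05 (early), -0.29 (late) and -0.15 (lysate means), against 0.01, 0.00 and 0.00 over all genes and -0.03 on lysate means over the other receptors. The median SE of a member on lysate means was 0.20, and Mex3a itself had a change of -2.68 (SE 0.14, adjusted p = 0.0224 by limma).

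The 3 highest members had values near 0 on lysate means: -0.08 for Olfr794 (SE 0.13), -0.08 for Olfr812 (SE 0.13) and 0.01 for Olfr791 (SE 0.12), with adjusted p of 0.832, 0.852 and 0.99 by limma. The members with the smallest p were named after their values were seen. Olfr806 (ENSMUSG00000071065, chr10:129735571-129741921, minus strand) of MOR110 was at 2.08 and 2.84 TPM (early) and 2.11 and 1.84 TPM (late) in WT, and 1.06 and 0.474 TPM (early) and 1.30 and 0.661 TPM (late) in cKO. All 4 cKO libraries lay below all 4 WT ones, with a change of -0.77 (SE 0.24, adjusted p = 0.383 by limma), on 6 to 46 reads per library. Its nearest relative is Olfr805, at 93.7% identity (95.7% over the 937 bases aligned), so its values are uncertain in the same way as those of the close copies.

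Olfr796 (ENSMUSG00000052012), one of the pair with the alanine codon, was at 3.58 and 4.40 TPM (early) and 4.85 and 4.12 TPM (late) in WT, and 2.79 and 2.88 TPM (early) and 2.67 and 2.34 TPM (late) in cKO. Its change was -0.47 (SE 0.15, adjusted p = 0.383 by limma), again with no overlap between genotypes. Olfr813 (ENSMUSG00000052818) of MOR108 went the other way, at 4.34 and 3.86, 4.19 and 3.21, 5.64 and 5.54, and 5.29 and 4.74 TPM in the same order, and all 4 cKO libraries were above all 4 WT ones (0.40, SE 0.15, adjusted p = 0.413 by limma). Olfr809, its closest relative in the subfamily at 91.3% coding identity (96.6% over the 930 bases aligned), had a change of -0.52 (SE 0.17, adjusted p = 0.403 by limma). These close relatives thus had values on opposite sides of 0, neither past the threshold, and how reads that match both were counted is not given.

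Olfr789 (ENSMUSG00000111273) had the lowest change, -0.91 (SE 0.31, adjusted p = 0.403 by limma). It was at 6.37 and 7.32 TPM in WT early against 2.02 and 2.18 in cKO early, but at 2.27 and 4.15 in WT late against 0.582 and 3.95 in cKO late, on 2 to 33 reads. Its groups were apart in early and overlapped in late polysomes. Olfr801 (-0.49) and Olfr820 (-0.50) were the remaining members with an unadjusted p under 0.05 on lysate means.

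In 4 of 43 members (9.3%; Olfr796, Olfr806, Olfr818 and Olfr820) all cKO libraries were below all WT libraries, against 1.3% of all genes and 7.3% of other receptors; in 1 (Olfr813) they were all above, against 0.988% and 2.69%. On lysate means both cKO lysates were below both WT lysates in 18 members (41.9%), against 21.1% of all genes and 30.7% of other receptors, and above in 8 (18.6%, against 22.6% and 23.2%). The mature neuron markers lay on the same side: 11 of 12 were below 0 on lysate means, with a median of -0.09 and none past the threshold. Their summed scaled TPM averaged 12059 (WT) and 11959 (cKO) in early polysomes, and 8849 and 8049.5 in late ones. The part of these markers in the receptor values was not tested.

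In chromosome order, the longest run of tested neighbours with values below 0 was looked up. From Olfr792 to Olfr809, chr10:129539162-129778937, 12 neighbouring tested members were all below 0 on lysate means, from -0.08 to -0.77. Before this stretch 9 of 18 tested members were below 0, and after it 7 of 13. The stretch was picked as the longest such run after the values were seen, so its contrast with the flanks follows from that choice. It spans 15 members, tested or not. None of its tested genes passed the threshold, and some are close copies of other receptors, so it is given as a description.

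**Figure D4:**
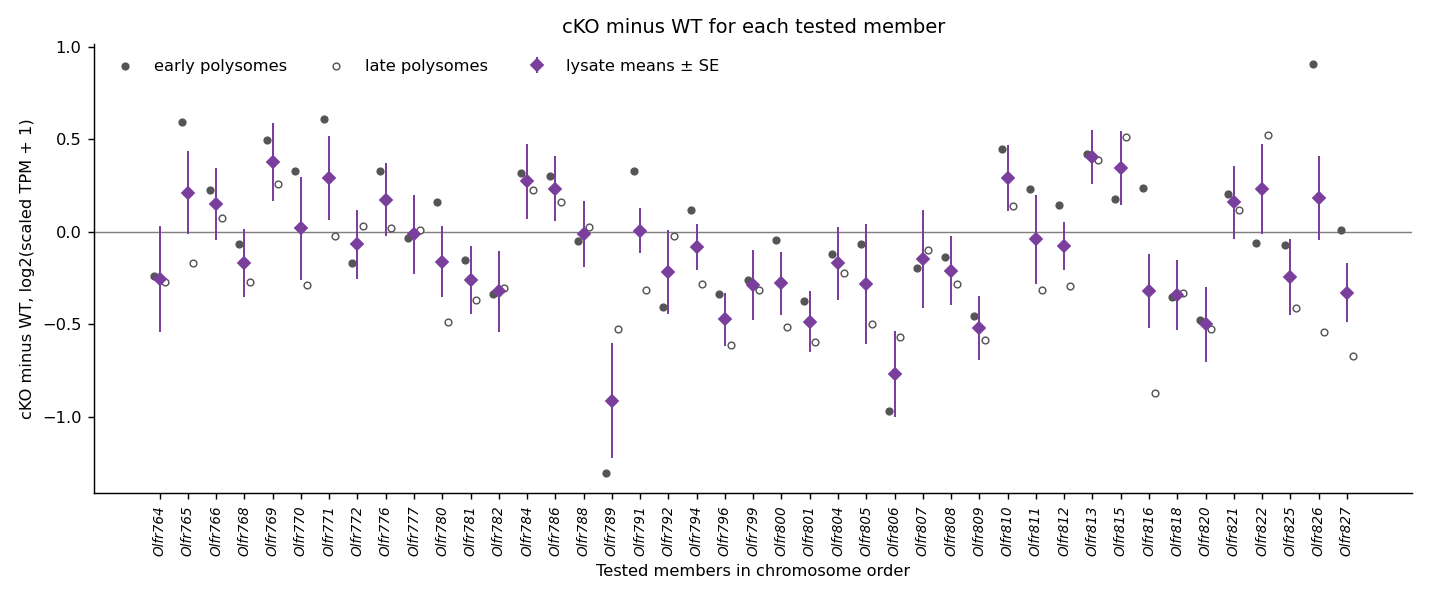
cKO minus WT, log2(scaled TPM + 1) (y axis), for the 43 tested members in chromosome order (x axis), on lysate means (diamonds, bars are SE of the fit) and in early (filled) and late (open) polysomes. The 12 members from Olfr792 to Olfr809 lie below 0 on lysate means, Olfr789 is lowest at -0.91 and Olfr813 highest at 0.40; none passed an adjusted p of 0.05.

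Summed over all 58 genes, scaled TPM was 135.8 ± 21.4 (early) and 108.1 ± 10.4 (late) in WT and 138.1 ± 14.2 (early) and 85.0 ± 10.5 (late) in cKO (SD, n = 2 each). By library the sums were 120.7 and 151.0, 115.4 and 100.7, 128.1 and 148.2, and 92.4 and 77.6, so all late sums were below all early ones and both cKO late sums were the lowest. In TPM as deposited the sums overlapped, since the first WT late library (120.8) was above the first WT early library (118.8), and the cKO late sums were again the lowest (93.4 and 81.5). The other receptors summed to 2756 ± 328, 2411 ± 17.0, 2751 ± 249 and 2139 ± 27.6 scaled TPM in the same order. As a share of all receptor TPM the members made up 4.56% and 4.81% (early) and 4.59% and 3.99% (late) in WT, and 4.74% and 4.82% (early) and 4.18% and 3.47% (late) in cKO. The shares of WT early and WT late overlapped, and the lowest was in the library with the fewest reads.

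**Figure D5:**
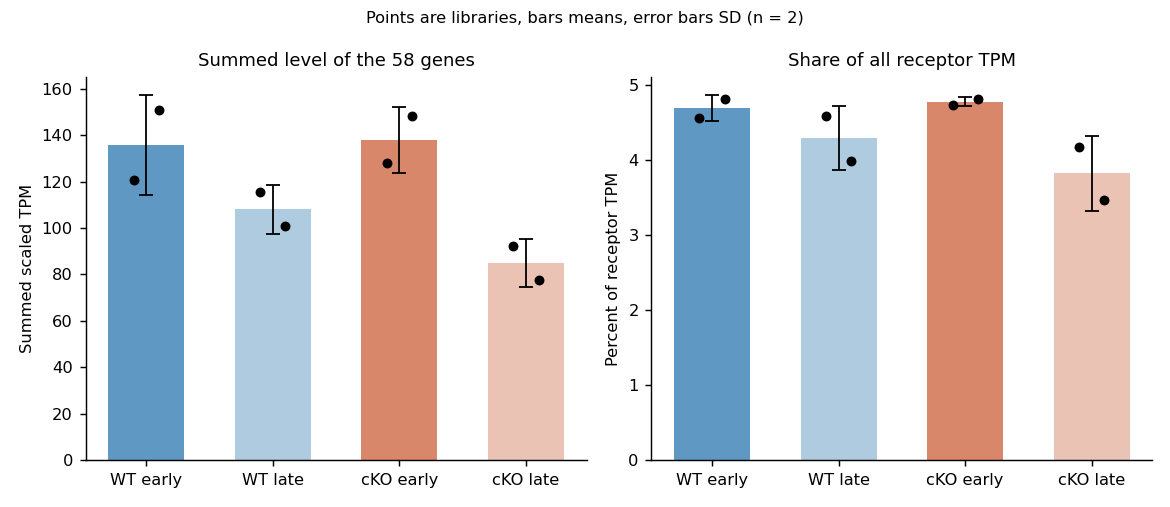
Left, summed scaled TPM of the 58 receptor genes; right, their percent of all receptor TPM; points are libraries, bars means and error bars SD (n = 2 per group). The sum is lowest in cKO late (85.0) and the share runs from 3.47% to 4.82% over the 8 libraries.

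The 15 untested members had mean deposited TPM from 0.134 to 0.961 and, without Olfr779, at most 168 reads over all 8 libraries. Of the 15, 7 were lower in late polysomes in at least 3 of 4 lysates. Olfr779, the polymorphic pseudogene, was above 0 in 1 library only, the second WT late one, at 1.76 TPM. The 15 were left out by the minimum of 1 TPM. With no minimum all 58 members were tested. Of these, 14 were lower and none higher in late polysomes for the average over genotypes, by limma. The share of all genes called without the minimum is not given here, so this count is not compared with it.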

How the data were processed

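Polysome RNA was sequenced from main olfactory epithelium after a stranded total-RNA library kit, per the labels' protocols. The authors deposited 1 table of TPM per gene for 8 libraries; the submitters' processing notes name FastQC, cutadapt, STAR, DESeq2 and mm10, and the annotation and the counting of shared reads are not given in the sources used here. The Cre line is not reported here.

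TPM were divided by median-ratio factors (0.9301 to 1.064), and log2(scaled TPM + 1) of the 16097 genes with a mean of at least 1 TPM was fitted with limma 3.58.1 in R 4.3.3, with 4 groups in 1 fit and a mean-variance trend. All 7 contrasts were adjusted over all genes by Benjamini-Hochberg, with a threshold of 0.05. The genotype contrast on lysate means used 2 lysates against 2. The rule for named genes took the 8 highest members, up to 8 called members in each direction per late-early contrast, called members in the others or the highest and lowest 3 at 5 TPM or more, members at 0 throughout, near-identical pairs and Mex3a. The members, lists and tests were chosen with earlier results of these data known. A protein table was not at hand, so identity was taken from GENCODE M21 (GRCm38) coding sequences with blastn 2.17.0+, as matching bases over the longer sequence. Subfamily names are RefSeq synonyms.

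Whole reads were inferred from TPM steps (tolerance 0.001 reads) for 100.0% of 19783 genes above 0 in at least 2 libraries, and used as an alternative with voom. Both the inference and the limma fits were run on simulated data. Exact reads were inferred there for 98.8% of 19373 genes. For each limma contrast given here, 200 genes were changed by 3 fold. The average late-early contrast recovered 193 of them, with 23 false calls. The genotype contrasts recovered 186 (early), 176 (late) and 190 (lysate means), with 22, 9 and 28 false calls. The interaction recovered the fewest, 124, with 10 false calls. Early and late libraries carry the lysate in their names, but deviations of same-lysate libraries from their group means correlated at 0.086 (WT) and 0.05 (cKO) across genes. Intervals beyond SE and SD are not given, because 2 libraries a group limit them.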

Additional observations from a re-analysis of the deposited data

How the results depend on the processing

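The counts of members called were recomputed under 133 alternatives, and 113 stayed within 1.5 times. Those 113 include all 74 genotype and interaction alternatives, where the count stayed at 0, so every count that moved was a late-early one. For the average late-early contrast (14) the count was 9 with quantile normalization, 2 of 3 tested at a mean of at least 5 TPM, and 8 to 14 leaving out 1 library. For WT (2) it was 0 at 5 TPM, 7 with no trend and 7 with voom (6 lower and 1 higher each), 5 at a mean of at least 10 inferred reads, 4 with the lysate as replicate block, 5 with only the 4 libraries compared, 1 without near-identical members, and 1 to 4 leaving out 1 library. For cKO (10) it was 2 at 5 TPM, 17 with no trend, 17 at 10 inferred reads, and 2 to 10 leaving out 1 library. The causes were not tested, beyond fewer genes tested at 5 TPM. The replicate block changed no other count by over 1.5 times; as replicate number in the genotype contrasts (deviations of same-numbered libraries had r = 0.331 for early and 0.142 for late, over 2 pairs) it also left 0.

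The median late-early change stayed below 0 under all alternatives run, from -0.65 to -0.25 (average), -0.43 to -0.14 (WT) and -0.90 to -0.23 (cKO), and that of cKO against WT in early polysomes ran from -0.15 to 0.15. Over all 7 contrasts, 39 of 126 alternatives moved the median by 1 SD or more. For the late-early contrasts this SD was that between the median changes of the lysates compared. The interaction used the SD between those of the 2 cKO lysates. The genotype contrasts used the SD between the median levels of the 2 cKO lysates, which is a spread of level and not of the genotype change. Changes in sign among named genes were those of Olfr791 on lysate means (0.01), to -0.003 with a pseudocount of 0.1, -0.036 with TPM as deposited and -0.002 and -0.066 leaving out 1 lysate, and of Olfr812 (-0.08), to 0.02 with voom and 0.003 leaving out WT lysate 1. Depth limits the members other than Olfr779, which has no inferred reads, to 7 to 1134 reads each over 8 libraries.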
